A study of Rattus norvegicus with 32 samples.

Results

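Corticosteroid signalling genes were described in RNA-seq libraries from 4 brain regions of adult male Sprague-Dawley rats, the nucleus accumbens (NAc), the dentate gyrus (DG), the cornu ammonis of the hippocampus (CA) and the subventricular zone (SVZ). Rats had received 4 intraperitoneal injections of methamphetamine (METH, 10 mg/kg each) or of saline (Sal, 1 mL/kg), 2 h apart, and tissue was taken the day after, with 4 samples per region and treatment and 32 in all. No genotype or transgene distinguished the groups. The genes were chosen by name as the 2 corticosteroid receptors and 7 genes that glucocorticoids induce, and 8 of these 9 were measured among the 28914 genes of the count tables. Nr3c1, the glucocorticoid receptor itself, was not analysed here. The 8 genes were Nr3c2, Fkbp5, Sgk1, Tsc22d3, Zbtb16, Ddit4, Cdkn1a and Hif3a, and each had reads in all 32 samples and passed the filter on low counts in every comparison.

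Corticosterone, the main glucocorticoid of the rat, crosses into neurons and glia and binds a pair of nuclear receptors. The mineralocorticoid receptor (Nr3c2) has the higher affinity for it and is abundant in the hippocampus, whereas the glucocorticoid receptor is occupied mainly when the hormone is high, as after stress. The bound receptor leaves its chaperones, enters the nucleus and switches on a set of genes, some of which, such as Fkbp5, feed back on the receptor. Other members of the set are also switched on by hypoxia, by p53 or by growth arrest, so none of them is a readout of the hormone alone.

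Several libraries stood apart in ways that touch these genes. Total counts lay between 11094002 and 21869773 per sample, and 1 read was worth 0.046 to 0.094 CPM (the read count scaled to the upper-quartile library size, the unit of all levels given in CPM). The labels give male rats, and the summed Y-linked genes lay between 79.5 and 105.7 CPM in all 32 samples. The library labelled DG Sal 3 had 0.0635 CPM of Neurod6, a gene of hippocampal pyramidal and granule neurons, against 44.2 to 127.7 in the other 3 DG saline libraries, and 1530 CPM of summed striatal neuron markers against 182 to 205. NAc METH 3 had 226 CPM of the same striatal sum, against 2506 to 2947 in the other 3 NAc METH libraries. Summed thalamic neuron markers passed 1000 CPM in SVZ Sal 1, SVZ METH 2 and SVZ METH 4, and summed choroid plexus markers did so in DG Sal 4, DG METH 3, CA Sal 2 and SVZ METH 3. Oligodendrocyte markers were also highest in the 3 thalamus-rich libraries, at 18920 to 27740 CPM against 2344 to 14610 in the other 29. Prox1, which marks dentate granule neurons within the hippocampus, ran from 26.1 to 150.5 CPM in DG Sal, from 58.9 to 312 in DG METH, from 33.2 to 296 in CA Sal and from 52.6 to 159 in CA METH, so the CA label did not exclude dentate tissue. In the file headers the library numbers 14 and 15 belong to saline samples in the NAc and CA but to METH samples in the DG, and 20 and 21 the other way round. The 4 SVZ METH libraries carry only 2 library numbers. The headers also hold a name, here called the header name, which is not stated to be a sequencing run. In the NAc, DG and CA it was partly tied to treatment. All SVZ libraries shared a name found in no other region, so differences of the SVZ from other regions cannot be told apart from it. Groups were kept as the labels give them. Samples are not stated to be separate animals, so p-values measure the spread between these samples, and differences in cell composition cannot be told apart from differences in RNA per cell in bulk tissue.

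Across the saline samples, levels were compared between genes per kilobase of exon (RPKM, made here from the deposited counts and lengths). Sgk1, a kinase that controls sodium channels and pumps, lay between 29.5 and 31.6 RPKM as a group mean in the 4 regions. Tsc22d3, which encodes the anti-inflammatory protein GILZ, lay between 28.2 and 33.3 RPKM, and Ddit4, an inhibitor of mTORC1, between 24.5 and 28.5. The receptor Nr3c2 ran from 14.0 RPKM in the NAc to 39.8 in the CA, and Zbtb16, a zinc finger transcription factor also called PLZF, from 6.10 in the NAc to 23.2 in the CA. Fkbp5 lay between 13.2 and 18.7 RPKM. Cdkn1a, the cell cycle inhibitor p21, and Hif3a, a hypoxia-inducible factor subunit, were the lowest, at 2.27 to 6.27 and 1.32 to 2.21 RPKM. The first group of genes was therefore nearly level across regions and the receptor and Zbtb16 were not.

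Of the 8 genes, Nr3c2 and Zbtb16 varied most between the regions of the saline brain. With edgeR's quasi-likelihood F test over the 4 regions, Zbtb16 had an adjusted p of 0.0243 and Nr3c2 one of 0.0287, both under 0.05 and neither under the 0.01 required of a call, at which 0.0% of the 15515 genes tested were called (5.79% were under 0.05). The other 6 genes had adjusted p-values between 0.338 and 0.996. For the SVZ this test cannot tell the region apart from the header name. Under DESeq2 and edgeR's likelihood ratio test both genes passed the threshold of 0.01, with adjusted p-values of 8.15e-06 and 9.23e-06 for Zbtb16 and 3.58e-05 and 0.000103 for Nr3c2. These tests called 1495 and 1040 of the 15515 genes. Without CA Sal 1 the adjusted p was 0.0981 for Nr3c2 and 0.0705 for Zbtb16.

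Zbtb16 divided the hippocampal libraries from the others, with 1 exception. Its saline levels were 16.3, 16.3, 10.0 and 21.5 CPM in the NAc and 15.5, 16.3, 20.0 and 15.2 in the SVZ. They were 63.6, 46.0, 59.8 and 74.4 CPM in the CA and 81.8, 64.7, 10.6 and 68.7 in the DG. The low DG value was DG Sal 3, the library that lacked Neurod6. The NAc lay below the CA, at a log2 difference of -1.93 (SE 0.43, edgeR adjusted p = 0.0313, where 5.1% of 15515 genes had an adjusted p under 0.05), and the CA exceeded the SVZ by 1.86 (SE 0.43, adjusted p = 0.0165, where 13.2% did). Without DG Sal 3 the F test passed the threshold (edgeR adjusted p = 9.61e-05), and the log2 difference of the NAc from the DG was -2.16 (SE 0.22, adjusted p = 0.000365). That fit called 463 of 15716 genes by the F test and 36 for the NAc against the DG. Between the CA and DG (log2 difference 0.11, SE 0.41) and between the SVZ and NAc (0.06, SE 0.42) the differences were within the spread.

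Nr3c2 had its highest saline level in the CA, at 158, 73.1, 115 and 72.2 CPM. It was 80.3, 37.1, 44.7 and 57.0 CPM in the DG, 24.3, 48.4, 37.8 and 58.4 in the SVZ, and 32.6, 35.2, 40.4 and 39.5 in the NAc. All 4 CA libraries lay above all 4 NAc and all 4 SVZ libraries, though the share of all genes separated in this way was not counted. By edgeR, 3745 of 15515 genes had an unadjusted p under 0.05 between NAc and CA, and 4900 between CA and SVZ. The NAc differed from the CA by -1.504 on the log2 scale (SE 0.31, edgeR adjusted p = 0.0298, where 5.1% of 15515 genes were under 0.05). The CA exceeded the SVZ by 1.31 (SE 0.31, edgeR adjusted p = 0.0174, where 13.2% were), a contrast that cannot be told apart from the header name. The DG lay 0.93 below the CA (SE 0.30, adjusted p = 0.482), and DG and SVZ, and SVZ and NAc, did not differ beyond their spread (0.38, SE 0.30 and 0.19, SE 0.30). The span of Nr3c2 (rn6 chr19:34448289-34752695, minus strand) overlaps that of AABR07043659.1 on the other strand, and counting was without strand. Whether this touched the Nr3c2 counts was not tested.

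**Figure D1:**
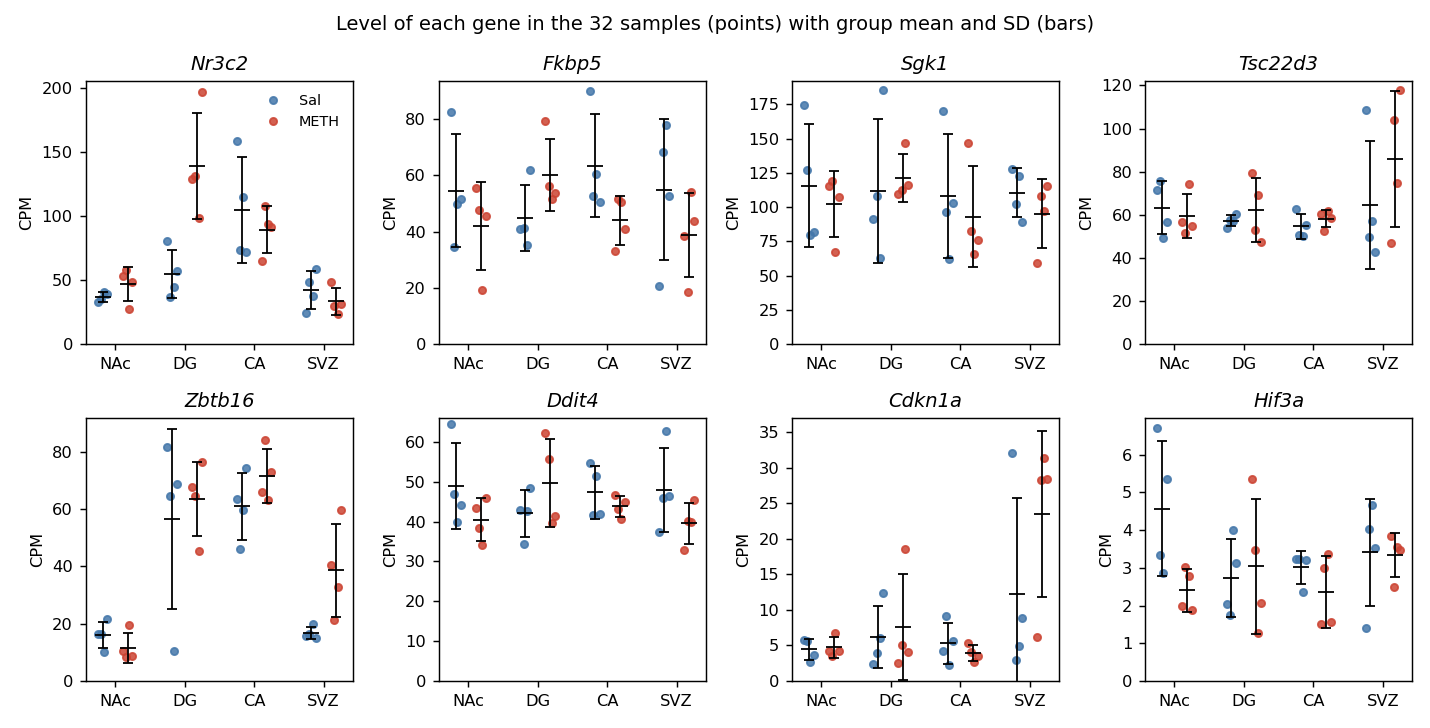
Levels in CPM (vertical axes, from 0) of the 8 genes in each region, with saline samples in blue and METH samples in red (4 points a group) and the group mean ± SD as black bars. Nr3c2 in the DG and Zbtb16 in the SVZ show METH samples that all lie above the saline samples, and the single low Zbtb16 point in DG Sal is 10.6 CPM.

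METH was then compared with saline in each region, to ask how the overdose altered the receptor and its targets a day later. By the threshold for a call (adjusted p under 0.01 and a fold change over 1.5), 0 of the 8 genes were called in any region with edgeR's quasi-likelihood test, as were 0.0% of all genes tested in each. When p was left unadjusted and held under 0.05, each region counted 1 of the 8 genes, beside a background of 3.39% (NAc, 14771 genes), 12.8% (DG, 14800), 7.16% (CA, 14612) and 2.58% (SVZ, 15579). They were 4 different genes, namely Hif3a in the NAc, Nr3c2 in the DG, Fkbp5 in the CA and Zbtb16 in the SVZ. Groups that did not overlap were found for Nr3c2 in the DG and Zbtb16 in the SVZ, where 7.1% and 1.59% of 16122 genes did the same in either direction.

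The receptor Nr3c2 in the DG had the largest log2 fold change of the 32 (8 genes in 4 regions). Its levels were 129, 131.5, 98.2 and 196.5 CPM in DG METH against 80.3, 37.1, 44.7 and 57.0 in DG Sal, means of 139 ± 41.3 and 54.8 ± 18.9 (SD, n = 4 each). The lowest METH sample was above the highest saline sample. In log2 terms the difference was 1.34 (SE 0.28), with an unadjusted p of 0.00126 and an adjusted p of 0.171 by edgeR's quasi-likelihood test. DESeq2 (adjusted p = 0.00157) and edgeR's likelihood ratio test (adjusted p = 0.00251) called it, among 180 and 117 called of 14800 genes. The 19 alternatives gave log2 fold changes from 1.13 to 1.58. Without DG Sal 3 the log2 fold change was 1.26 (edgeR unadjusted p = 0.00456, adjusted p = 0.181), without the choroid-rich DG Sal 4 and DG METH 3 it was 1.504 (adjusted p = 0.223), and without the 4 libraries with crossed numbers it was 1.53 (adjusted p = 0.731). With the header name as a covariate it was 1.54 (adjusted p = 0.387). In the DG only DG Sal 3, DG METH 1 and DG METH 2 share a header name across treatments, so this value rests on them. DG Sal 3 is the library that lacked Neurod6.

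Some markers of dentate granule neurons and of CA pyramidal neurons, and the summed astrocyte markers, were also higher in DG METH. Prox1 was 150.5, 26.1, 29.6 and 74.6 CPM in DG Sal 1 to 4 and 312, 269, 58.9 and 204 in DG METH 1 to 4. C1ql2, another granule neuron gene, had a median of 9.85 CPM in DG Sal and 68.9 in DG METH. Plk5 (log2 fold change 0.0004, SE 0.70) and Pdzd2 (-0.18, SE 0.19), of the same list, were not higher. Neurod6, listed with the pyramidal markers, ran from 0.0635 to 127.7 CPM against 118.5 to 260.0. Of the 6 listed dentate markers all were found, the summed level ran from 162 to 314 CPM in DG Sal and from 164 to 550 in DG METH, and 1 marker was at 0 in at least 1 sample of each group. CA pyramidal markers summed to 233 to 432 CPM in DG Sal and 321 to 1149 in DG METH. Of these, Bok (log2 fold change 1.57, SE 0.24) and Grik4 (1.37, SE 0.24), chosen after their values were seen, had an edgeR adjusted p of 0.157 each. In the CA the saline samples with the most Prox1 (CA Sal 3 with 296 CPM and CA Sal 1 with 251) were also those with the most Nr3c2 (115 and 158 CPM). With METH the order in the CA was another one, since CA METH 2 had the least Prox1 of its group (52.6 CPM) and the most Nr3c2 (108), and CA METH 3 the most Prox1 (159 CPM) beside 93.6 of Nr3c2. In the DG, Prox1 and Nr3c2 were 58.9 and 98.2 CPM in DG METH 3, 150.5 and 80.3 in DG Sal 1, and 74.6 and 57.0 in DG Sal 4. The summed pyramidal markers in these libraries were 452, 432 and 413.5 CPM. Astrocyte markers (6 of 6 found, none at 0) summed to 2440 to 3014 CPM in DG Sal and 3446 to 3661 in DG METH, groups that did not overlap. Over the 32 samples with group means removed, Nr3c2 had r of 0.54 with the pyramidal sum, 0.52 with the granule sum and 0.13 with the astrocyte sum. The first 2 sums were not confined to the hippocampus. The granule sum was 281 to 320 CPM in SVZ Sal, and the pyramidal sum 127 to 965 in NAc METH against 385 to 722 in CA Sal. Their r with Nr3c2 is therefore not one with hippocampal cell content alone. The part of granule neuron, pyramidal neuron and astrocyte content in the Nr3c2 difference was not tested.

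**Figure D2:**
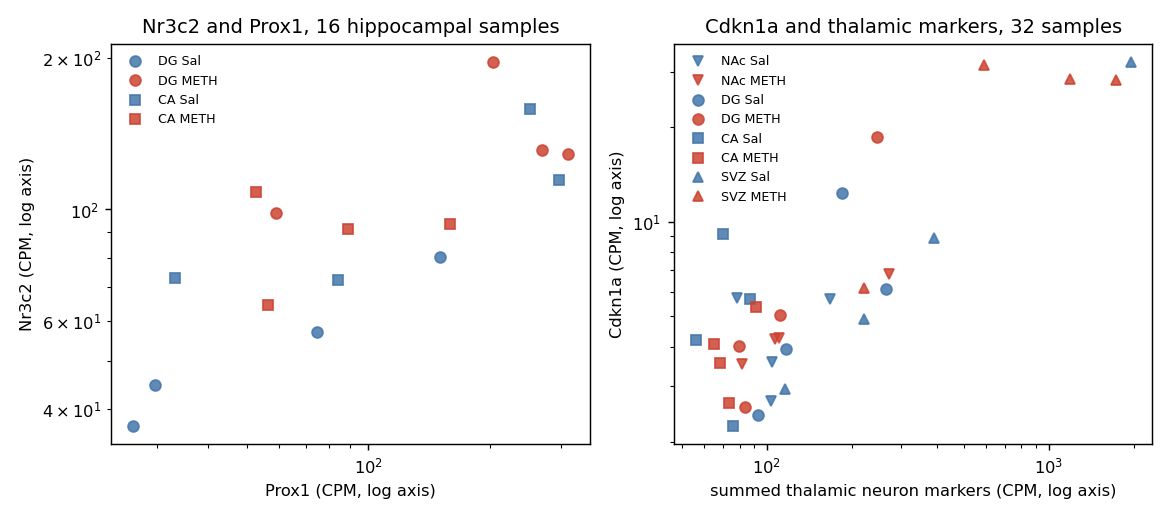
Left, Nr3c2 against Prox1 in the 16 hippocampal samples, and right, Cdkn1a against the summed thalamic neuron markers in all 32 samples, in CPM on log axes, with saline in blue, METH in red and regions by symbol. Nr3c2 is 98.2 in DG METH 3 (Prox1 58.9) and 80.3 in DG Sal 1 (Prox1 150.5), and the 5 samples with over 15 CPM of Cdkn1a are 4 SVZ samples and DG METH 3.

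In the other regions Nr3c2 showed no like difference. It was 53.1, 58.1, 27.7 and 48.3 CPM in NAc METH against 32.6 to 40.4 in NAc Sal (log2 fold change 0.35, SE 0.21, edgeR adjusted p = 0.999). The single low METH value was NAc METH 3, without which the log2 fold change was 0.54 (edgeR unadjusted p = 0.0010, adjusted p = 0.857). In the CA the log2 fold change was -0.23 (SE 0.26) and in the SVZ -0.34 (SE 0.31). The METH effect on Nr3c2 differed between the 4 regions at an unadjusted p of 0.00163 but an adjusted p of 0.274 (edgeR F test; 7.74% of 16122 genes had an unadjusted p under 0.05). The DG effect exceeded the CA effect by 1.56 (SE 0.42, unadjusted p = 0.00195, adjusted p = 0.132 by edgeR), a comparison in which 15.4% of 15308 genes had an unadjusted p under 0.05.

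Fkbp5, the immunophilin that binds the receptor complex and lowers its affinity for the hormone, was lower in CA METH than in CA Sal. Levels were 33.2, 51.7, 50.5 and 41.1 CPM with METH and 90.0, 52.8, 60.6 and 50.5 with saline. The groups touched, since CA Sal 4 lay within the METH range. METH minus saline came to -0.53 on the log2 scale (SE 0.21), with an unadjusted p of 0.0318 and an adjusted p of 0.686 by edgeR's quasi-likelihood test. Without CA Sal 1, the highest sample, it was -0.31 (edgeR unadjusted p = 0.0854), and without CA METH 1 or CA METH 4 the unadjusted p was 0.0787 or 0.0739. With the header name as a covariate it was -0.33 (edgeR unadjusted p = 0.231), and the fit of all 32 samples gave an unadjusted p of 0.145.

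In the DG the direction was the other one. Fkbp5 was 79.3, 56.4, 51.5 and 53.7 CPM in DG METH and 40.8, 41.2, 35.4 and 61.8 in DG Sal, and only DG Sal 4 exceeded the lower METH samples. The log2 fold change was 0.42 (SE 0.21, edgeR adjusted p = 0.443). Without DG Sal 4 it was 0.63 (edgeR unadjusted p = 0.00624, adjusted p = 0.254). The difference between the DG and CA effects was 0.95 (SE 0.31), with an unadjusted p of 0.00868 and an adjusted p of 0.189 by edgeR, and it was 0.64 (unadjusted p = 0.133) without the DG libraries with crossed numbers. For NAc and SVZ the log2 fold changes were -0.36 (SE 0.35) and -0.50 (SE 0.44). They moved to -0.10 without NAc Sal 1 and -0.12 without NAc METH 3, and in the SVZ to -0.77 without SVZ Sal 1, -0.28 without SVZ Sal 3 and -0.27 without SVZ METH 2. The lowest Fkbp5 values of the 32 samples were NAc METH 3 (19.4 CPM), SVZ Sal 1 (20.8) and SVZ METH 2 (18.6), which are the accumbens library poor in striatal markers and 2 of the thalamus-rich ones.

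**Figure D3:**
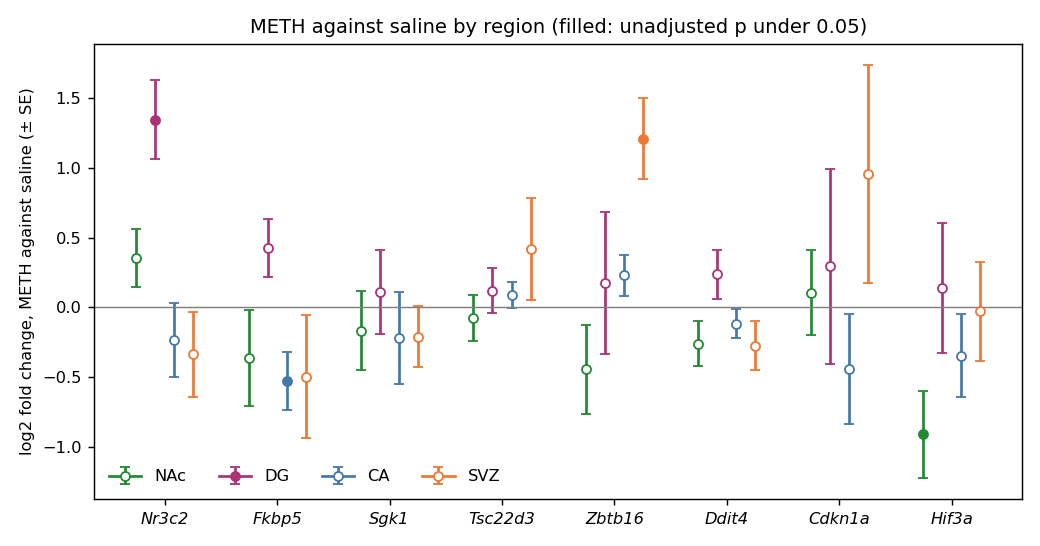
Log2 fold change of METH against saline (vertical axis, ± SE, edgeR) for the 8 genes in the 4 regions (colours, 4 against 4 samples each). Filled points have an unadjusted p under 0.05, at 1.34 for Nr3c2 in the DG, 1.21 for Zbtb16 in the SVZ, -0.53 for Fkbp5 in the CA and -0.91 for Hif3a in the NAc, and none passed the adjusted threshold.

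Sgk1 and Tsc22d3, induced by glucocorticoids in most tissues, did not stand out in any region. For Sgk1 the log2 fold changes ran from -0.22 (SE 0.33) in the CA to 0.11 (SE 0.30) in the DG, with edgeR adjusted p-values from 0.882 to 0.999. Its spread between like samples was wide, from 62.9 to 185.6 CPM within DG Sal and from 62.0 to 170.2 within CA Sal. Tsc22d3 lay between 54.0 and 60.3 CPM in DG Sal and between 50.3 and 62.5 in CA Sal, and ran from 47.6 to 79.4 in DG METH. In the SVZ it was 108, 49.7, 57.3 and 42.7 CPM with saline and 47.1, 104, 74.8 and 118 with METH (log2 fold change 0.42, SE 0.37, edgeR adjusted p = 0.979). The 3 values over 100 CPM were those of the 3 thalamus-rich libraries. Leaving out SVZ Sal 1 moved the log2 fold change to 0.78 (edgeR unadjusted p = 0.0351, adjusted p = 0.282).

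Zbtb16 was higher in every SVZ METH sample than in every SVZ saline sample. Levels were 40.3, 21.3, 32.9 and 59.7 CPM with METH (38.6 ± 16.1, SD, n = 4) and 15.5, 16.3, 20.0 and 15.2 with saline (16.7 ± 2.21). The smallest gap was between SVZ METH 2 at 21.3 and SVZ Sal 3 at 20.0 CPM. The log2 fold change was 1.21 (SE 0.29), with an unadjusted p of 0.00291 and an adjusted p of 0.979 by edgeR's quasi-likelihood test, and over 18 alternatives it ran from 0.92 to 1.41 with an unadjusted p under 0.05 in each and no call. Without the 3 thalamus-rich libraries it was 1.10 (edgeR unadjusted p = 0.000733, adjusted p = 0.61). With METH libraries summed by library number, which leaves 2 METH values against 4, it was 1.18 (edgeR unadjusted p = 0.00106). Of the 18 alternatives this one had the highest adjusted p.

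The SVZ METH samples also differed from each other in other tissue. Neurod6 was 45.4 CPM in SVZ METH 1 and 0.23 to 0.57 in the other 3, while saline samples ran from 0.231 to 12.8. Summed striatal markers ran from 286 to 4925 CPM in SVZ Sal and from 211 to 2507 in SVZ METH, summed oligodendrocyte markers from 3917 to 18920 and from 8827 to 27740, and summed ependymal markers from 13.5 to 98.8 and from 4.74 to 68.6. Of the thalamic markers 6 of 6 were found and none was at 0. Their sum was 1954 CPM in SVZ Sal 1, 1740 in SVZ METH 2 and 1193 in SVZ METH 4. In the same order, Zbtb16 was 15.5, 21.3 and 59.75 CPM. The part of tissue content in the Zbtb16 difference was not tested. Elsewhere the log2 fold changes for NAc, DG and CA were -0.44, 0.17 and 0.23 (SE 0.32, 0.51 and 0.15). The DG value was -0.17 (SE 0.18) without DG Sal 3. The METH effect on Zbtb16 differed between regions at an unadjusted p of 0.0395 and an adjusted p of 0.616 (edgeR F test), at 0.00114 and 0.269 without DG Sal 3, and at 0.123 unadjusted without SVZ METH 4.

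Ddit4 had group means between 39.6 and 49.7 CPM in all 8 groups. For NAc, DG, CA and SVZ its log2 fold changes were -0.26, 0.24, -0.12 and -0.27 (SE 0.16, 0.18, 0.11 and 0.17), with edgeR adjusted p-values from 0.638 to 0.999. Leaving out SVZ Sal 1 moved the SVZ value to -0.38 (edgeR unadjusted p = 0.0452).

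Cdkn1a was high in libraries that carried other tissue. It was below 7 CPM in all 8 NAc samples and in all 4 CA METH samples. The highest values were 32.1 CPM in SVZ Sal 1, 31.4 in SVZ METH 3, 28.4 in SVZ METH 4, 28.3 in SVZ METH 2, 18.7 in DG METH 3, 12.3 in DG Sal 4 and 9.13 in CA Sal 2. These 7 libraries are the 3 with over 1000 CPM of thalamic markers and the 4 with over 1000 CPM of choroid plexus markers. The log2 fold change in the SVZ was 0.95 (SE 0.78, edgeR adjusted p = 0.979), and without SVZ Sal 1 it was 2.08 (unadjusted p = 0.0109, adjusted p = 0.27). For NAc, DG and CA it was 0.11, 0.29 and -0.44, and leaving out single samples turned its sign in NAc (-0.13 to 0.24) and DG (-0.68 without DG METH 3, 0.87 without DG Sal 4) and brought CA to -0.04 without CA Sal 2. Of the choroid plexus markers 6 of 6 were found, and their sum ran from 0.98 to 18.3 CPM over the NAc samples, from 0.705 to 6186 over DG, from 1.84 to 2164 over CA and from 7.08 to 8301 over SVZ. Ttr, their most abundant gene, reached 7405 CPM in the SVZ and had no read in the lowest NAc METH sample. The part of these tissues in the Cdkn1a levels was not tested.

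Hif3a, whose span overlaps a small RNA gene on its own strand (RF00105), was the least abundant, with 18 to 97 reads per sample. In the NAc it was 6.71, 3.34, 2.88 and 5.36 CPM with saline and 1.98, 3.01, 2.78 and 1.87 with METH. The METH range overlapped the lowest of the saline values. Summed astrocyte markers were 2557 to 2707 CPM with saline and 2944 to 4226 with METH, and their part in the difference was not tested. On the log2 scale METH minus saline came to -0.91 (SE 0.31), with an unadjusted p of 0.0185 and an adjusted p of 0.999 by edgeR's quasi-likelihood test. Without NAc Sal 1 it was -0.67 (edgeR unadjusted p = 0.0531) and without NAc METH 3 -0.99 (unadjusted p = 0.0231). With the header name as a covariate it was -0.72 (edgeR unadjusted p = 0.195). Elsewhere the log2 fold changes for DG, CA and SVZ were 0.14, -0.34 and -0.03 (SE 0.47, 0.30 and 0.36).

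Averaged over the 4 regions, the METH effect was between -0.29 and 0.29 on the log2 scale for all 8 genes. By edgeR's quasi-likelihood test 0 of 8 had an unadjusted p under 0.05, against 7.83% of 16122 genes. The lowest adjusted p-values were those of Nr3c2 (0.28, SE 0.15, adjusted p = 0.667), Zbtb16 (0.29, SE 0.19, adjusted p = 0.726) and Hif3a (-0.29, SE 0.19, adjusted p = 0.727). Regions other than the SVZ share library numbers in the file headers, so their samples may not be independent.

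The other genes of the pathway gave 0 calls in each list and region. Among 25 or 26 tested genes that glucocorticoids induce, those with an unadjusted p under 0.05 and a higher level with METH numbered 1, 3, 5 and 0 for NAc, DG, CA and SVZ (beside 2.42%, 6.35%, 4.37% and 1.19% of all genes tested), and those with a lower level 0, 1, 1 and 2 (beside 0.968%, 6.42%, 2.79% and 1.39%). In the same order, their median log2 fold change was 0.06, 0.11, 0.07 and -0.07, beside 0.03, -0.01, 0.01 and 0.02 over all genes tested. In the CA the smallest p-values belonged to Fam107a, a stress-induced actin regulator (503 ± 47.2 CPM with saline, 775 ± 89.9 with METH, log2 fold change 0.62, SE 0.11, edgeR adjusted p = 0.473), to Klf15, a transcription factor of metabolism (17.6 ± 0.582 against 22.8 ± 1.61 CPM, adjusted p = 0.669), and to Sesn1, an antioxidant sestrin (51.9 ± 8.69 against 38.1 ± 3.80 CPM, adjusted p = 0.669). Vascular markers (4 of 6 found, 1 of them at 0 in at least 1 sample of each group) summed to 97.5 to 130 CPM in CA Sal and 120.5 to 163 in CA METH, and astrocyte markers to 2712 to 3674 and 3223 to 3986. Of these markers Vwf (log2 fold change 0.48, SE 0.14), Flt1 (0.39, SE 0.14) and Slc1a3 (0.37, SE 0.13), chosen after their values were seen, had an unadjusted p under 0.05 in the CA (edgeR adjusted p = 0.669 each), and the part of these cells in the list's values was not tested. In the DG the smallest p-values belonged to Rasd1, a dexamethasone-induced Ras protein (16.2 ± 5.35 against 36.1 ± 12.7 CPM, edgeR adjusted p = 0.212), to Cebpb, a transcription factor (5.55 ± 2.76 against 14.8 ± 6.72 CPM, adjusted p = 0.264), and to Errfi1, an inhibitor of the EGF receptor (34.7 ± 2.76 against 45.5 ± 7.54 CPM, adjusted p = 0.294).

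In the SVZ the smallest p-values belonged to Per1, a clock gene (87.8 ± 12.3 CPM with saline, 62.6 ± 8.43 with METH, edgeR adjusted p = 0.979) and Klf9, a transcription factor (156 ± 23.1 against 126.5 ± 7.20 CPM, adjusted p = 0.979), and in the NAc Mt2A, a metallothionein, was 6.45 ± 0.961 against 16.3 ± 8.67 CPM (edgeR adjusted p = 0.999). Averaged over regions, Klf15 (log2 fold change 0.25, SE 0.07), Lcn2 (1.20, SE 0.35, at means of 0.437 and 0.978 CPM) and Per1 (-0.25, SE 0.09) had the smallest p-values, with edgeR adjusted p-values of 0.484, 0.495 and 0.544. In the CA the sign of Per1 was the opposite (log2 fold change 0.23, SE 0.10, edgeR unadjusted p = 0.0458, adjusted p = 0.688). Of the 12 chaperone and hormone-metabolism genes 0 had an unadjusted p under 0.05 in any region, and Hsd11b1, which regenerates active glucocorticoid, did so in the average (0.39, SE 0.15, adjusted p = 0.564). Of 11 tested coregulators only Ppargc1a did, in the DG (52.4 ± 7.56 against 38.6 ± 4.67 CPM, edgeR adjusted p = 0.254). Of all genes tested, 3.39%, 12.8%, 7.16% and 2.58% did in the NAc, DG, CA and SVZ, and 7.83% in the average.

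Hypoxia-induced genes, listed because Hif3a and Ddit4 also answer to low oxygen, gave 1 lower gene at an unadjusted p under 0.05 in each region and 1 higher in the DG, of 10 or 11 tested. Of all genes tested, 0.968%, 6.42%, 2.79% and 1.39% were lower in the NAc, DG, CA and SVZ, and 6.35% higher in the DG. The listed genes were Ldha in the NAc (136 against 117 CPM as means), Vegfa in the DG (91.2 against 71.9), Bnip3 in the CA (54.4 against 46.5) and Ankrd37 in the SVZ (7.37 against 3.86), with Pfkfb3 higher in the DG (53.7 against 83.7). Vegfa (log2 fold change -0.19, SE 0.07) and Ankrd37 (-0.51, SE 0.18) were also lower in the average (edgeR adjusted p = 0.516 and 0.521). The p53-induced genes, listed because of Cdkn1a, gave 0 of 11 in every region and Gadd45a in the average (-0.43, SE 0.20, edgeR adjusted p = 0.611). In either direction, 3.39%, 12.8%, 7.16% and 2.58% of all genes had such a p in the NAc, DG, CA and SVZ, and 7.83% in the average.

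The 8 genes were then compared with each other over the 32 samples, after the mean of each group was taken from log2(CPM + 1). Of 28 pairs, 6 had an adjusted p under 0.05 by permutation within groups (100000 draws, two-sided). Fkbp5 went with Ddit4 (Pearson's r = 0.59, Spearman's rho = 0.57, raw permutation p = 0.00284, adjusted p = 0.0244) and with Hif3a (r = 0.54, rho = 0.55, raw permutation p = 0.00297, adjusted p = 0.0244), and without the 2 samples farthest from the Fkbp5 median r was 0.49 and 0.53. Nr3c2 went against Cdkn1a (r = -0.63, rho = -0.61, permutation p = 0.0023, adjusted p = 0.0244) and Tsc22d3 (r = -0.56, rho = -0.55, permutation p = 0.00348, adjusted p = 0.0244), with r of -0.55 and -0.43 without the 2 farthest samples. Sgk1 went with Cdkn1a (r = 0.47, rho = 0.49, permutation p = 0.00562, adjusted p = 0.027) and Tsc22d3 (r = 0.41, rho = 0.46, permutation p = 0.00579, adjusted p = 0.027), with r of 0.45 and 0.41. The pair with one of the largest r, Tsc22d3 and Cdkn1a (0.61), had an adjusted permutation p of 0.0654, and its r was 0.36 without SVZ Sal 1 and SVZ METH 1.

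Within single regions the sign held in some pairs. Fkbp5 and Ddit4 had r of 0.70, 0.68, 0.43 and 0.58 in the NAc, DG, CA and SVZ (8 samples each), and Nr3c2 and Cdkn1a had -0.80, -0.45, -0.64 and -0.79. Nr3c2 and Tsc22d3 had -0.79, -0.52 and -0.80 in the NAc, DG and SVZ but 0.26 in the CA. Summed markers moved with several of these genes across the same samples. The thalamic sum had r of 0.82 with Cdkn1a, 0.73 with Tsc22d3, -0.71 with Fkbp5 and -0.60 with Nr3c2, the oligodendrocyte sum 0.75 with Cdkn1a and 0.55 with Sgk1, and the striatal sum 0.68 with Fkbp5. Their part in the correlations was not tested.

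**Figure D4:**
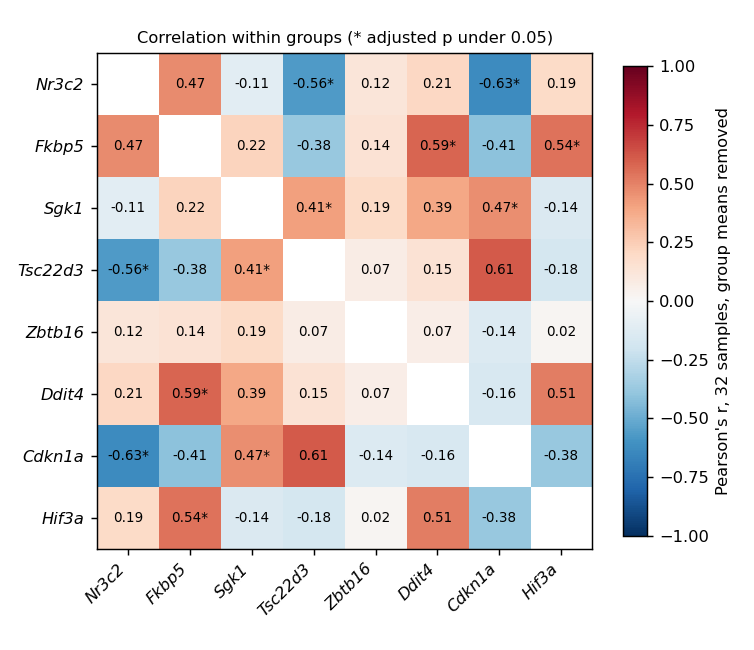
Pearson's r between the 8 genes over 32 samples (colour and printed value), from log2(CPM + 1) with each group's mean removed, with stars at an adjusted permutation p under 0.05. Fkbp5, Ddit4 and Hif3a have r of 0.51 to 0.59 with each other, and Nr3c2 has -0.63 with Cdkn1a and -0.56 with Tsc22d3.

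By the same measure, the genes most like each member were sought among 16121 others over the 32 samples. Cers6, Kdm1a and Zbtb20 were most like Nr3c2 (r = 0.85, 0.82 and 0.82), and Sptb, Klhl2 and Hpca most like Fkbp5 (0.86, 0.84 and 0.84). Got1, Agpat5 and Gclm were most like Tsc22d3 (0.93, 0.90 and 0.90), and Car14, Slc12a2 and Stk39 most like Cdkn1a (0.93, 0.91 and 0.90). Values were lower for the other members, at 0.80 to 0.76 for Sgk1 (Plekhf1, Serf2 and Gpatch4), 0.76 to 0.73 for Zbtb16 (Nf1x, Khdrbs3 and Chtf18), 0.74 and 0.715 for Hif3a (Calr4 and Arhgef33) and 0.73 to 0.66 for Ddit4 (Tada2b, Zdhhc24 and Dgat2). Fkbp5 ranked 21 of 16121 for Ddit4 and 101 for Hif3a. In the other direction, Ddit4 ranked 769 and Hif3a 1049 for Fkbp5, so many other genes were more like Fkbp5.

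The sequences upstream of the transcription start of Fkbp5 and Ddit4, a correlated pair, are shown as the RefSeq annotation of GRCr8 places them (250 bases before the start, 5′ to 3′ on the minus strand, at chr20:6543556-6543805 and chr20:28437038-28437287). Capitals mark CG dinucleotides.
Fkbp5: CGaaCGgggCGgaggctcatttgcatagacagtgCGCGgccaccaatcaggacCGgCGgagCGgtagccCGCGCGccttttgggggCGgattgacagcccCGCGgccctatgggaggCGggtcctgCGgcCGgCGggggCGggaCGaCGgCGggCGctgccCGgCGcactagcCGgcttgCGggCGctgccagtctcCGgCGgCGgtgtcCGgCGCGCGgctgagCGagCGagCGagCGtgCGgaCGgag
Ddit4: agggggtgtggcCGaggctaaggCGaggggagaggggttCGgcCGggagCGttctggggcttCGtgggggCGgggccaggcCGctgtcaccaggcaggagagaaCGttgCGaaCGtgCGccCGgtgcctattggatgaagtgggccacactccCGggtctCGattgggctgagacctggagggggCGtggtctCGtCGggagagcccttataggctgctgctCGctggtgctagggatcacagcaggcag
The Fkbp5 window (these bases and the 50 that follow) held 52 CG dinucleotides and the Ddit4 window 23, against a median of 7 over 33469 promoter windows of the same length, 0.493% of which held as many as Fkbp5 and 19.5% as many as Ddit4. Windows were given for 6 of the 8 genes (11 in all, with Nr3c2 and Zbtb16 not given). The 6-base receptor site, AGAACA or TGTTCT on the other strand, occurred in 0 of these 11 and in 20.7% of all windows, and the full palindrome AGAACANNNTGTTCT, which contains both, in 0 of the 11 and in 5 of all windows. These counts describe the windows only, since receptor binding sites of such genes often lie in introns or far upstream. In rn6, the build of the counts, Fkbp5 lies at chr20:7976713-8019020 and Ddit4 at chr20:29509289-29511382.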

How the data were processed

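Total RNA depleted of ribosomal RNA was sequenced in 32 samples. Per the labels, the file headers and the study's methods, the authors trimmed reads with Cutadapt 2.7, checked them with FastQC 0.11.4, mapped them with STAR 2.5.2b to rn6 and deposited raw counts per gene from featureCounts 1.6.3, without strand and with a mapping quality of at least 10. The headers name an Ensembl annotation (release 95) and the methods a UCSC one. The deposited counts were fitted with edgeR 4.0.16 in R 4.3.3 (upper-quartile normalization, filterByExpr, quasi-likelihood tests, Benjamini-Hochberg adjustment over all genes tested). A gene was called at an adjusted p under 0.01 and a fold over 1.5 for METH, or over 2 between saline regions. Each region was fitted on its own 8 samples, the average and the difference between regions on all 32, the DG against the CA on 16, and the saline regions on 16. RPKM used the deposited gene length.

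The members and gene lists were chosen with earlier results of these data known. Named genes were the members, the 3 genes most like each (1 of them is not reported here), and up to 3 genes per list and comparison with the smallest unadjusted p under 0.05. The list values therefore describe genes picked by rank. Alternatives were TMM, DESeq2 1.42.0, the likelihood ratio test, other filters, 2 RUVr factors (unwanted variation from residuals), the replicate block and leaving out each sample. The header name as a covariate, crossed numbers, choroid- or thalamus-rich libraries and summed SVZ libraries were tried after seeing the data. The tests were tested on simulated data with 200 changed genes. All genes and regions were simulated with a dispersion of 0.05, the square of the biological coefficient of variation. The fits of the data had a common coefficient of 0.247 (NAc), 0.311 (DG), 0.199 (CA) and 0.373 (SVZ). The simulated calls therefore do not give the power of the tests on the data. Of 100 genes with a fold of 2, 63 were called in the NAc (among 14654 genes), 61 in the DG (14708), 47 in the CA (14493), 61 in the SVZ (15460) and 17 for the DG against the CA (15134), with 3, 0, 1, 1 and 0 wrong calls, and of 100 with a fold of 4, 100 in each region and 97 for the DG against the CA. Of 48 replicate pairs none agreed within sampling noise (chi-square per gene 15.3 to 184). Total counts of 11094002 to 21869773 limit Hif3a most, with 18 to 97 reads. The series count matrix was not used.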

Additional observations from a re-analysis of the deposited data

Results flagged for a closer look

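In 64 groups of 4 samples (8 genes in 8 groups), 4 samples lay far from the other 3 by Dixon's test at the 95% level, where chance flags about 1 in 20 groups. They were Sgk1 in DG METH 3 (147.0 CPM, against 109.7 to 116.0 in the other 3), Cdkn1a in DG METH 3 (18.65 CPM, against 2.58 to 5.06), Cdkn1a in SVZ METH 1 (6.177 CPM, against 28.3 to 31.4) and Hif3a in CA Sal 3 (2.366 CPM, against 3.21 to 3.24). DG METH 3 was also the DG library with the most choroid plexus markers (6186 CPM), and SVZ METH 1 the only SVZ METH library with neither thalamic nor choroid plexus markers over 1000 CPM.

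The METH effect differed between regions at an unadjusted p under 0.05 in 4 tests of edgeR's quasi-likelihood fit. Over the 4 regions these were Nr3c2 at 0.001629 (edgeR adjusted p = 0.274) and Zbtb16 at 0.03951 (edgeR adjusted p = 0.616). In the DG against the CA they were Nr3c2 at 0.001947 (edgeR adjusted p = 0.132) and Fkbp5 at 0.008675 (edgeR adjusted p = 0.189), so none passed the threshold.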

How the results depend on the processing

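In 4 regions, the average and both tests of a difference between regions, 0 of the 8 genes were called by edgeR's quasi-likelihood test under every alternative of that test, and 1 (Nr3c2 in the DG) was called by DESeq2 and by the likelihood ratio test. In the DG the latter called 180 and 117 of 14800 genes. In the saline samples 0 were called, against 2 with DESeq2, 2 with the likelihood ratio test, 2 with 2 RUVr factors and 2 at an adjusted p under 0.05 (Nr3c2 and Zbtb16 in each), and 0 to 1 when a sample was left out, with 1 without DG Sal 3. Of all 15515 genes, 1495, 1040 and 1148 were called with DESeq2, the likelihood ratio test and 2 RUVr factors. At an adjusted p under 0.05 there were 898, and without DG Sal 3 463 of 15716 were called. The counts at an unadjusted p under 0.05 moved more. With RUVr factors they were 3 for NAc (1 before), 3 for SVZ (1), 2 for the average (0) and 4 for the difference between regions (2). Over all genes the same counts were 2027 of 14771, 3127 of 15579, 2503 of 16122 and 2946 of 16122. Before, they were 500, 402, 1262 and 1248 of the same totals. With the header name as a covariate, which is partly tied to treatment, the counts of the 8 genes were 0, 3 and 0 for NAc, DG and CA (1 each before). Over all genes they were 278, 1629 and 777 (500, 1890 and 1046 before). The fit of all 32 samples gave 0 in the CA. Leaving out choroid-rich libraries gave 2 in the DG, leaving out thalamus-rich ones 3 in the SVZ, and leaving out crossed numbers 1 in the DG against the CA (2 before). The counts over all genes were then 1729 of 14745, 1080 of 16050 and 2502 of 15861. Leaving out single samples gave 0 to 3 for NAc, 1 to 3 for DG, 0 to 2 for CA, 1 to 4 for SVZ, 0 to 1 for the average and 1 to 3 for the difference between regions. The 4 in the SVZ came without SVZ Sal 1, where 2596 of all 15815 genes had an unadjusted p under 0.05. The cause was not tested. The only difference whose sign turned where an unadjusted p was under 0.05 was Tsc22d3 in saline NAc against SVZ, at -0.18 to 0.34 over samples left out, with 0.34 without SVZ Sal 1.

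The replicate numbers did not pair the samples. Deviations of same-numbered saline and METH samples had r of -0.77 to 0.40, over 0.1 in 7 of 16 pairs, and 3 of 16 saline samples correlated best with their own number. With the replicate block, 0 genes of the NAc fit, 0 of the CA fit and 1 for the difference between regions had an unadjusted p under 0.05, and in the saline samples the number at an adjusted p under 0.05 over the 4 regions was 1 (2 before) and that at an unadjusted p under 0.05 in saline NAc against SVZ was 0 (1 before). The planned ratio of the receptors was not run, since Nr3c1 was not analysed here. The number of correlated pairs was 6 in each of its 3 alternatives. DESeq2 gave no adjusted p for 1 gene in the SVZ. Depth limits Hif3a and Cdkn1a, with as few as 18 and 31 reads per sample.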
